A study of Mus musculus with 6 samples.

Results

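The potassium channel subunit genes of the mouse were described in organoids of the esophagus and the stomach. Members were the genes whose array name was Kcn followed by letters and a number, without *Kcnq1*, *Kcne2*, *Kcne3* and *Kcnj15*, and 88 of the 34298 gene names on the arrays met this rule. For a gene with several probes, the brightest on average across the 6 arrays was used. The members carried 134 probes in all, and 37 of them had several.

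The organoids were grown in Matrigel at passage 0 from epithelium of mice numbered 1, 2 and 4 and labelled control, with 1 esophagus and 1 stomach array for each number. The labels do not state outright that the same number in both tissues means the same animal. The labels give no age for them. Per the study's methods, wild-type animals were female C57BL/6 mice, esophageal cultures were started from dissociated cells and stomach cultures from glands of the corpus. Both media contained EGF, noggin, FGF-10, nicotinamide, N-acetylcysteine and inhibitors of the TGF-beta receptor kinase and of ROCK. Stomach medium also held WNT3A and R-spondin1 conditioned media and gastrin, and esophagus medium held forskolin instead, so tissue and medium cannot be told apart in any comparison. All cultures were harvested on day 8 except the stomach organoids of mouse 4, harvested on day 7. Arrays are named below by tissue and mouse number.

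Potassium channels let potassium ions leave or enter a cell along their electrochemical gradient and so set the membrane potential. Their pore subunits fall into structural groups: voltage-gated subunits, silent subunits that conduct only together with other voltage-gated ones, subunits gated by intracellular calcium or sodium, inward rectifiers, and tandem-pore subunits that carry background currents. Accessory subunits bind the pore and change its gating or its delivery to the membrane. In epithelia these channels recycle potassium brought in by the sodium pump and supply the driving force for chloride and acid secretion, whereas many other members are best known from neurons and muscle.

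Each array carried 62976 spots, and 45.5% to 51.1% of the non-control spots were well above background by the scanner software's flag, with no saturated spot. The labelled tissues were checked against marker genes. All 10 columnar gastric markers, among them *Krt8*, *Tff2* and *Gata4*, were higher in stomach, and 9 of 10 squamous markers, among them *Krt5*, *Krt13* and *Col17a1*, were higher in esophagus. The tenth, *Trp63*, was lower there by its brightest probe, with a log2 change of -1.22, a call lost without stomach replicate 1 (adjusted p = 0.11), stomach replicate 2 (0.0878), esophagus replicate 1 (0.0615) or esophagus replicate 2 (0.0734). Of 6 genes listed as parietal cell markers, 4 were higher in stomach, among them *Gif*, which is known from chief cells in the mouse. *Slc26a9*, also among the 4, lost its call without esophagus replicate 2 (adjusted p = 0.0911) or any 1 of the stomach arrays (0.0661 to 0.152). The proton pump gene *Atp4a* had a mean of only 6.06 there and was at least 1.94-fold higher than in esophagus (adjusted p = 0.0177, and 0.0653 without stomach replicate 2), while *Atp4b* and *Slc26a7* were not well above background on any array. The remaining gene of the 4, not reported here by name, kept its call with each array left out in turn. None of 10 fibroblast and smooth muscle markers and none of 9 endocrine and tuft cell markers differed at adjusted p under 0.05. *Stmn2* and *Sox10*, of the 8 neuron and glia markers, were not well above background on any array, *Tubb3* and *Elavl4* were higher in esophagus and *Snap25* was higher in stomach. The call of *Elavl4* was lost without stomach replicate 2 (adjusted p = 0.0722), esophagus replicate 1 (0.0614) or esophagus replicate 2 (0.0703). The summed log2 level of the 8 ran from 13.0 to 13.9 in esophagus and from 14.0 to 15.4 in stomach. The part of these cell types in the potassium channel results was not tested. These were bulk cultures, in which fewer cells of a type and less RNA per cell cannot be told apart.

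Most potassium channel genes gave no signal above background in either kind of organoid. A gene counted as detected in a tissue when the flag was set for that probe on each of its 3 arrays. By this measure 19 of 88 members (21.6%) were detected in esophagus and 22 (25.0%) in stomach, against 48.4% and 51.2% of all gene names. In at least 1 tissue 25 members (28.4%) were detected, against 53.9% of all gene names, and on all 6 arrays 16 members were. Another 13 members were well above background on some arrays only, and 50 (56.8%) on none, against 36.2% of all gene names. The log2 values of these 50, which mark background rather than a level, lay between 4.15 and 5.56.

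The groups of subunits differed in their detected share. Of the 14 tandem-pore subunits 8 (57.1%) were detected in at least 1 tissue, and of the 29 voltage-gated pore subunits 11 (37.9%). The share was 2 of 14 for inward rectifiers, 2 of 13 for accessory subunits, 1 of 10 for silent subunits, and 1 of 8 for calcium- and sodium-activated subunits. In the last group only *Kcnn4* was detected, and the big-conductance pore gene *Kcnma1*, the small-conductance genes *Kcnn1*, *Kcnn2* and *Kcnn3*, the sodium-activated genes *Kcnt1* and *Kcnt2* and the sperm channel gene *Kcnu1* were above background on no array. The same held for both members of the delayed rectifier family Kcnb, all 4 of the modifier family Kcng and all 4 Kcnip genes, whose products are calcium-binding partners of Kcnd channels. These shares are a description of few genes and were not tested against each other.

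**Figure D1:**
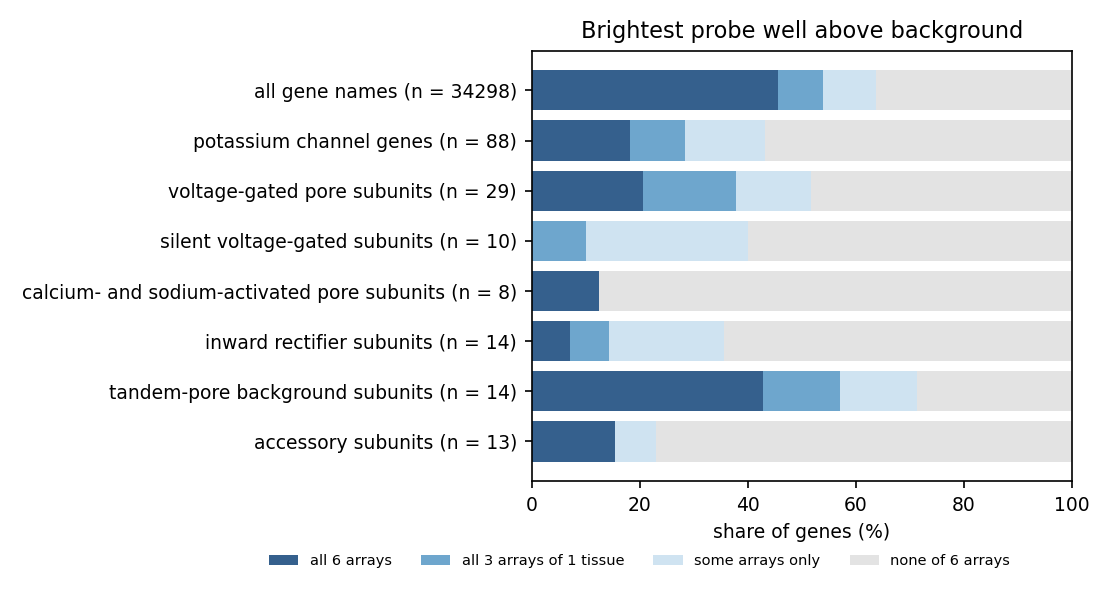
Share of genes (percent, horizontal axis) with a brightest probe well above background on 6 of 6 arrays, on every array of just 1 tissue, on some arrays only or on no array, for all 34298 gene names, the 88 potassium channel genes and their 6 structural groups. The tandem-pore group has the widest detected part, 57.1%, and the calcium- and sodium-activated group the widest undetected part, 87.5%.

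The comparison of esophagus with stomach asked which of these genes differ between the squamous and the columnar organoids. Of the 88 members 16 (18.2%) passed at adjusted p under 0.05, against 14.9% of all gene names in the same test. Of these 8 (9.09%) were higher in esophagus, against 7.15% of all gene names, and 8 (9.09%) were higher in stomach, against 7.7%. The remaining 72 did not pass. All 3 esophagus arrays lay above all 3 stomach arrays for 16 members, against 16.9% of all gene names, and all 3 stomach arrays lay above for another 16, against 14.7%, while the tissues overlapped for 56. Neither count stood far from the share among all gene names. The median log2 change, esophagus minus stomach, was -0.04 over the members and 0.03 over all gene names, and the median size of the change was 0.21 and 0.24. These values include the many genes at background. Among genes detected in at least 1 tissue, 14 of 25 members (56%) passed, against 26.6% of all gene names. The median size of the change there was 1.01 and 0.48. A gene can enter this subset through the tissue in which it is high, and the difference in shares was not tested.

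The calls were split evenly within the voltage-gated pore group, 3 in each direction of 29, and within the tandem-pore group, 3 in each direction of 14. Single calls came from the silent group and the accessory group, both higher in esophagus, and from the calcium-activated group and the inward rectifiers, both higher in stomach. Counts depended on single arrays. Members higher in esophagus numbered 4 without stomach replicate 1 or stomach replicate 2 and 5 without esophagus replicate 2. Over all gene names the same 3 settings gave 1349, 1353 and 1806, against 2452 with all arrays. Members higher in stomach numbered 5 without stomach replicate 2, esophagus replicate 1 or esophagus replicate 2. All gene names higher in stomach numbered 1835, 2498 and 2010 in these settings, against 2642 with all arrays. The calls of 9 of the 16 genes, *Kcnq5*, *Kcnk7*, *Kcna4*, *Kcnk13*, *Kcnk10*, *Kcnn4*, *Kcnk1*, *Kcnc1* and *Kcnh4*, held with each array left out in turn.

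**Figure D2:**
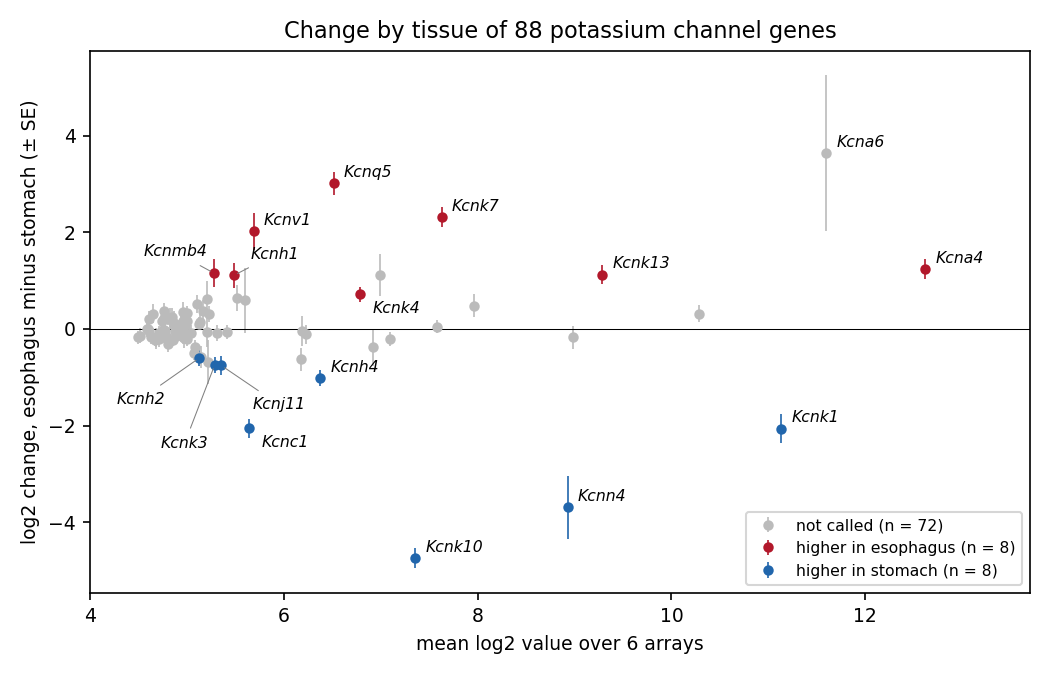
Log2 change, esophagus minus stomach, with its standard error (vertical axis) against the mean log2 value over the 6 arrays (horizontal axis) for the 88 potassium channel genes, 8 higher in esophagus, 8 higher in stomach and 72 not called, plotted as differences of the deposited values also where a tissue was at background. Most genes sit near 5, at background, with changes near 0, and *Kcna6* has a change of 3.64 with the widest error.

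Sequences around annotated transcription starts are shown for the called genes with the largest changes that held with each array left out, 2 in each direction, to set beside their values. They are RefSeq windows of mouse assembly GRCm38.p6, from 250 bases before to 50 bases after a start, 5′ to 3′ on the strand of the gene. Capitals mark the letters GGGCGG, known as the GC box, and the shorter letters CCAAT, both searched on either strand. The same search was made for the letters TATAAA of the classical core promoter and, with erythroid and gastric GATA factors in mind, for AGATAA. Neither of the last pair is in any window of the called genes that matched. *Kcnk10*, higher in stomach, from chr12:98578164-98578463 on the minus strand, and *Kcnn4*, higher in stomach, from chr7:24370013-24370312 on the plus strand, come first. *Kcnq5*, higher in esophagus, from chr1:21962601-21962900 on the minus strand, and *Kcnk7*, higher in esophagus, from chr19:5704221-5704520 on the plus strand, follow.
Kcnk10: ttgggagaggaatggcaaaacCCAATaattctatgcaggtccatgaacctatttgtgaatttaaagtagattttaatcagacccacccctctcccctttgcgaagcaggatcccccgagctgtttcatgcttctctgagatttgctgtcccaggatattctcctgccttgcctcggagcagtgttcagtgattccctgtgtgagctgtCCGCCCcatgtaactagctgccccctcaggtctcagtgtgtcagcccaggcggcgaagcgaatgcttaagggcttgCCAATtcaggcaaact
Kcnn4: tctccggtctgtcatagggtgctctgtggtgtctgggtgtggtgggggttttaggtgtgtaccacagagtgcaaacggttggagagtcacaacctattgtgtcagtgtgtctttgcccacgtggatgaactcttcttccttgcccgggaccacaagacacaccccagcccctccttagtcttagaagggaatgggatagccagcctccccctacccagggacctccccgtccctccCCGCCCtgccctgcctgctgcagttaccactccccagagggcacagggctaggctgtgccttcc
Kcnq5: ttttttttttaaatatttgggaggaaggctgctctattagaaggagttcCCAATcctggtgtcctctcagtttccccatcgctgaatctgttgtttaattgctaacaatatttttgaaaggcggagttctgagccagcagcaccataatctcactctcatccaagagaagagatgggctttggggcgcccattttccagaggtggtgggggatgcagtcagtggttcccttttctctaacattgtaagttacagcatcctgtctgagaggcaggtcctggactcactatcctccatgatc
Kcnk7: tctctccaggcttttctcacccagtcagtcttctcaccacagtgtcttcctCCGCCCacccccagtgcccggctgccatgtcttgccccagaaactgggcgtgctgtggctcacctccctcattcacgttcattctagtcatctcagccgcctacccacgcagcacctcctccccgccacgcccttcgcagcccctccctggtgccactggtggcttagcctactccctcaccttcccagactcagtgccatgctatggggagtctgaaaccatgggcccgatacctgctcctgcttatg

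RefSeq also lists a second start for *Kcnk10* and for *Kcnq5*, and those windows hold none of the 4 motifs. Of the 88 members 64 matched a RefSeq entry by symbol, with 87 windows. Among these 48.3% held GGGCGG, against 35.7% of all 32851 windows, 31.0% held CCAAT, against 37.4%, 4.6% held TATAAA, against 13.6%. The letters AGATAA were in 3.45%, against 11.2%. The median number of CG dinucleotides per window was 9 against 7, and the median GC content 58.3% against 52.7%. Of the called genes, GGGCGG was in 5 of 8 windows of the genes higher in esophagus and in 5 of 7 windows of those higher in stomach. A match describes these letters and is not a binding site.

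Among the called voltage-gated pore subunits, *Kcnq5*, which forms slowly activating M-type channels, changed most toward esophagus. Its log2 values were 7.86, 8.01 and 8.18 on the esophagus arrays of mice 1, 2 and 4 and 4.80, 4.71 and 5.50 on the stomach arrays. The groups were far apart, and of the stomach arrays only that of mouse 4 was well above background. The log2 change was 3.01 (SE 0.23, n = 3 per tissue, adjusted p = 0.000105), from a probe at chr1:21389067-21389126 in the mm9 coordinates of the scanner files. Its size depended on the processing. It was 5.06 with the processed signal scaled to its 75th percentile, 2.11 with a normexp offset of 50 and 1.22 as the mean of the gene's 3 probes, and each of these passed. A dimmer *Kcnq5* probe, above background on 1 esophagus array and no stomach array, did not pass (adjusted p = 0.0942), nor did the dimmest, at background on all arrays.

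*Kcna4*, which forms rapidly inactivating A-type channels, was bright in both tissues and moderately higher in esophagus. Its esophagus values were 13.06, 13.36 and 13.30 and its stomach values 12.09, 11.60 and 12.30. The lowest esophagus array was above the highest stomach array. The log2 change was 1.24 (SE 0.21, adjusted p = 0.00684), a 2.36-fold difference, measured at chr2:107138207-107138266 (mm9). *Kcnh1*, an ether-a-go-go subunit, read 6.53, 5.98 and 5.60 in esophagus and 4.69, 4.92 and 5.17 in stomach, where no array was well above background. The means were 6.04 and 4.93 and the gene was at least 2.14-fold higher in esophagus (adjusted p = 0.0283). The call was lost without stomach replicate 1 (adjusted p = 0.123), stomach replicate 2 (0.103) or esophagus replicate 2 (0.075), and with the mouse as a block (0.0677) or a normexp offset of 50 (0.0715).

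The voltage-gated genes called in the other direction were *Kcnc1*, *Kcnh4* and *Kcnh2*. *Kcnc1*, a fast delayed rectifier of rapidly firing neurons, read 6.93, 6.75 and 6.32 in stomach and 4.70, 4.71 and 4.42 in esophagus. Every esophagus array was at background and every stomach array was above it. With means of 6.66 and 4.61 it was at least 3.26-fold higher in stomach (adjusted p = 0.000357), at chr7:53693712-53693771 (mm9). The 2 other *Kcnc1* probes stayed at background on all arrays and did not pass.

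*Kcnh4*, a subunit of the ether-a-go-go-like branch, read 6.80, 6.93 and 6.91 in stomach and 5.67, 6.09 and 5.84 in esophagus. The stomach arrays were close to each other and all above the esophagus arrays, with a log2 change of -1.01 (SE 0.16, adjusted p = 0.00509). The change was -1.80 with the processed signal scaled to its 75th percentile. A second *Kcnh4* probe stayed at background on all arrays and did not pass, and the mean of both probes gave -0.57 (adjusted p = 0.0406). *Kcnh2*, the pore of the rapid repolarizing current of the heart, was above background on 2 stomach arrays and no esophagus array, and is outside the rule for named genes. Its values were 5.47, 5.22 and 5.59 in stomach and 4.71, 4.85 and 4.91 in esophagus. The means were 5.42 and 4.83, and it was at least 1.33-fold higher in stomach (adjusted p = 0.0484). Leaving out any 1 of the 6 arrays ended this call, with adjusted p from 0.0604 to 0.167, as did the mouse block (0.0877).

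The brightest probe named *Kcna6*, a delayed rectifier subunit, had a large change toward esophagus and did not pass the test. Its esophagus values were 13.78, 13.89 and 12.59, and its stomach values were 7.43, 7.78 and 14.12. The first 2 stomach arrays lay far below esophagus, and the stomach array of mouse 4 lay above every esophagus array. The log2 change was 3.64 (SE 1.60, adjusted p = 0.22), and without stomach replicate 4 it was 5.81 (adjusted p = 0.00017). It was 2.47 without stomach replicate 1 (adjusted p = 0.518) and 2.64 without stomach replicate 2 (adjusted p = 0.522). The array of mouse 4 was also the one harvested on day 7, and the array, the animal and the harvest day cannot be told apart.

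The gap of 6.34 between that array and the next stomach array was matched by no other gene on that array. Across the others, 5 genes reached such a gap on stomach replicate 1, 4 on esophagus replicate 2 and 0 on the rest. The probe, A_55_P2177273, lies at chr6:126686702-126686761 (mm9). A *Kcna6* probe only 220 bases away on the same strand read 4.63 to 5.96 over the 6 arrays, and the third, 28278 bases away, read 4.63 to 5.31. Both were well above background on only 1 of 6 arrays, an esophagus array, and showed neither the level nor the pattern of the bright probe. The scanner files tie the bright probe to a different transcript record than the other 2, and whether it reads *Kcna6* was not tested.

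**Figure D3:**
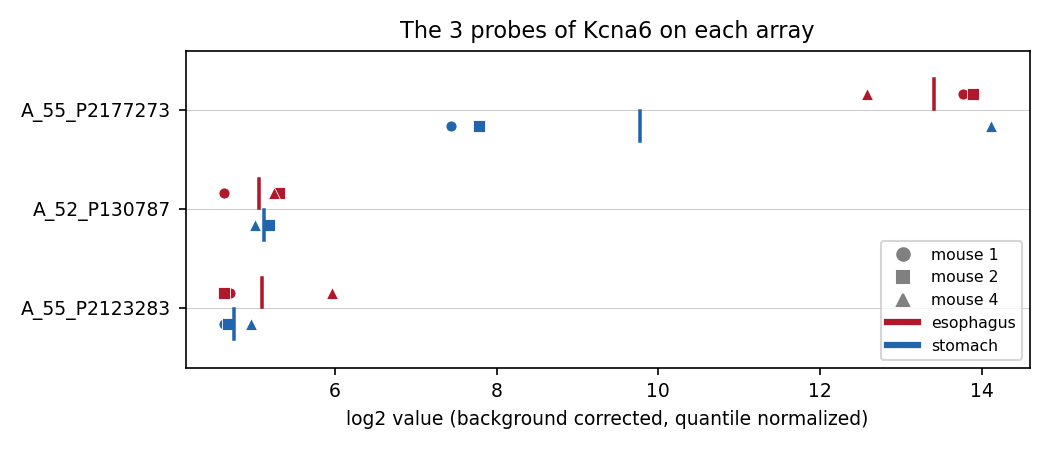
Log2 value (horizontal axis) of the 3 *Kcna6* probes on each array, with the mouse by symbol, the tissue by colour and the tissue mean as a vertical tick. On the bright probe the stomach array of mouse 4 stands at 14.12 beside the esophagus arrays, and both other probes stay below 6 throughout.

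Other detected voltage-gated genes did not pass. *Kcnd1*, an A-type subunit, differed by 0.05 (SE 0.14) and *Kcna7* by -0.21 (SE 0.15). *Kcnh3*, another ether-a-go-go-like subunit, differed by -0.63 (SE 0.23, adjusted p = 0.148). *Kcna1*, *Kcnc4* and *Kcnh5* were above background on some arrays only and did not pass, and 14 of the 29 voltage-gated genes were above it on none, among them *Kcna2*, *Kcna3*, *Kcna5* and *Kcnq3*.

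Of the silent subunits *Kcnv1*, which joins Kcnb subunits, was the only one detected. Its values were 6.03, 6.38 and 7.68 in esophagus and 4.56, 4.71 and 4.76 in stomach. The stomach arrays were all at background and the esophagus array of mouse 4 stood highest. With means of 6.69 and 4.68 the gene was at least 3.83-fold higher in esophagus (adjusted p = 0.0128). The call was lost without stomach replicate 1 (adjusted p = 0.0639) or stomach replicate 2 (0.0564), and with a normexp offset of 50 (0.0622). *Kcnf1*, another silent subunit, was above background on no esophagus array. Its brightest probe, above it on 1 stomach array, did not pass (adjusted p = 0.176), while its dimmer probe, above it on 2 stomach arrays, did, at least 1.27-fold higher in stomach (adjusted p = 0.0254). It was the only probe of a member other than a brightest one to pass, and no member had probes that passed in opposite directions.

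**Figure D4:**
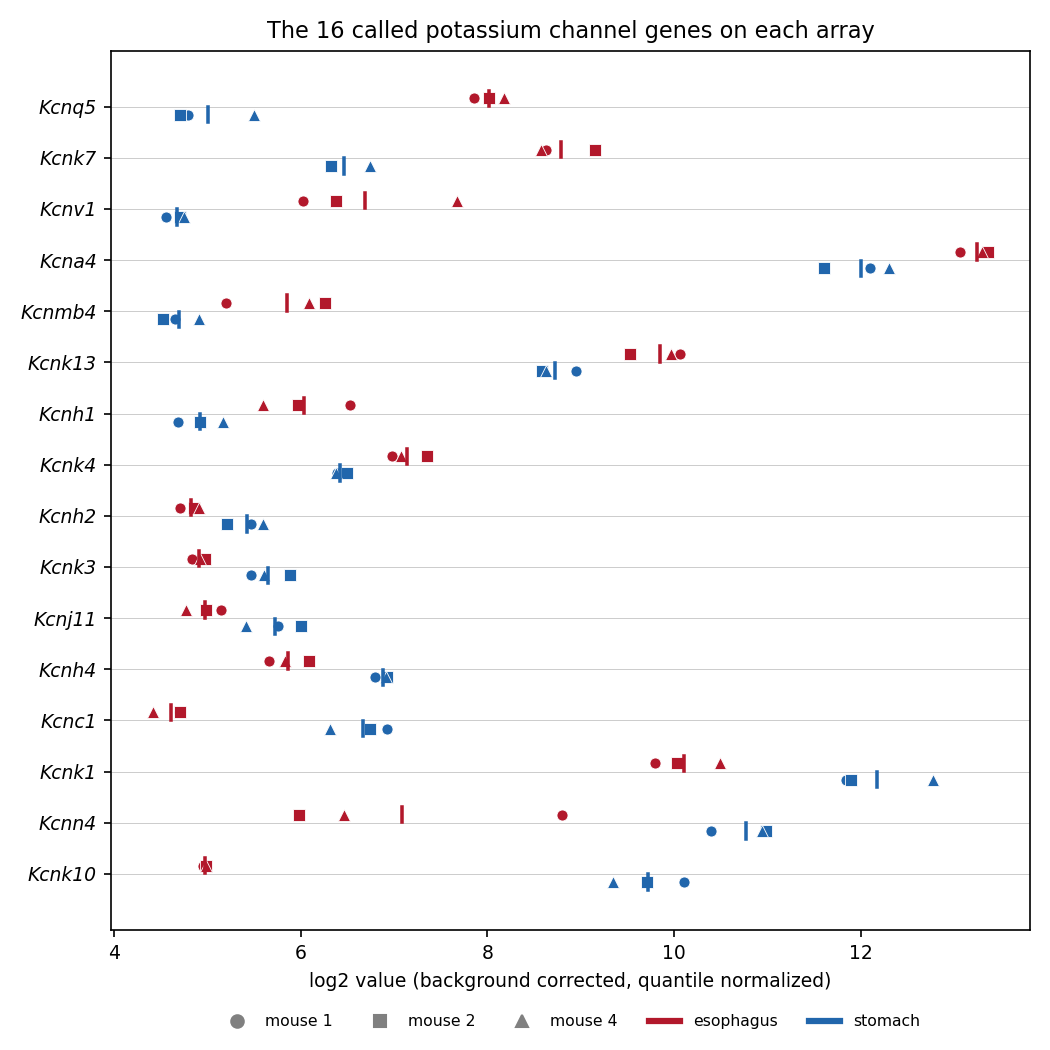
Log2 value (horizontal axis) of the 16 called potassium channel genes on each array, ordered by change, with the mouse by symbol, the tissue by colour and the tissue mean as a vertical tick. The 3 arrays of 1 tissue lie above the 3 of the other for every gene, widely for *Kcnk10* and *Kcnq5* and most narrowly for *Kcnj11*, *Kcnmb4* and *Kcnh2*.

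The tandem-pore subunits, which hold open background conductances, had 6 of 14 members called (42.9%), against 14.9% of all gene names. The largest change of any member was that of *Kcnk10*, a TREK-type channel opened by membrane stretch and fatty acids. Its stomach values were 10.10, 9.71 and 9.35 and its esophagus values 4.95, 4.99 and 4.99. The signal was clear on all stomach arrays and at background on all esophagus arrays. With means of 9.72 and 4.98 it was at least 25.7-fold higher in stomach (adjusted p = 4.13e-06), at chr12:99672268-99672327 (mm9).

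*Kcnk1*, a weakly conducting subunit of the TWIK type found in many epithelia, was well above background on all 6 arrays. It read 11.84, 11.89 and 12.77 in stomach and 9.80, 10.03 and 10.49 in esophagus. In both tissues the array of mouse 4 was highest, and the tissues did not overlap. The log2 change was -2.06 (SE 0.29, adjusted p = 0.00294), a 4.18-fold difference, at chr8:128554281-128554340 (mm9). *Kcnk3*, an acid-sensitive channel, lay close to background, at 5.47, 5.89 and 5.61 in stomach and 4.84, 4.97 and 4.93 in esophagus. With means of 5.65 and 4.91 it was at least 1.56-fold higher in stomach (adjusted p = 0.0215), and the call was lost without stomach replicate 2 (0.0825), esophagus replicate 1 (0.0572) or esophagus replicate 2 (0.0564).

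Toward esophagus, *Kcnk7*, a TWIK-related subunit not known to conduct on its own, read 8.63, 9.15 and 8.58 in esophagus and 6.33, 6.33 and 6.75 in stomach. All arrays were above background and the tissues were well separated. The log2 change was 2.32 (SE 0.21, adjusted p = 0.000265), a 4.98-fold difference, at chr19:5706810-5706869 (mm9). *Kcnk13*, a halothane-inhibited background channel, read 10.07, 9.52 and 9.96 in esophagus and 8.95, 8.59 and 8.63 in stomach. It was above background on all arrays, and its lowest esophagus value exceeded its highest stomach value. Its log2 change was 1.13 (SE 0.20, adjusted p = 0.00781).

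*Kcnk4*, which like *Kcnk10* responds to stretch and arachidonic acid, changed less and in the opposite direction. Its values were 6.98, 7.36 and 7.07 in esophagus and 6.39, 6.49 and 6.38 in stomach, with a log2 change of 0.72 (SE 0.16, adjusted p = 0.0222). The tissues did not overlap, but the call was lost without stomach replicate 1 (0.0949), stomach replicate 2 (0.0678), stomach replicate 4 (0.0505) or esophagus replicate 2 (0.0713). It was also lost with the processed signal at its 75th percentile (0.137), the mean of the gene's probes (0.106) and the trended, robust variance model (0.0825). A second *Kcnk4* probe stayed at background on all arrays and did not pass (adjusted p = 0.989). Beside the bright probe, 3345 bases away on the same strand, the probe of the sperm channel gene *Catsperz* moved in the same direction by 3.43 (adjusted p = 1.01e-05), and the part of transcripts shared between neighbouring genes was not tested.

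*Kcnk6*, another TWIK relative, and *Kcnk5*, an alkaline-activated channel of kidney epithelium, were above background on all 6 arrays and did not pass. *Kcnk6* read 10.72, 10.28 and 10.34 in esophagus and 10.15, 9.97 and 10.27 in stomach (log2 change 0.32, SE 0.18, adjusted p = 0.336). *Kcnk5* read 7.26, 8.63 and 6.76 in esophagus and 6.41, 6.51 and 6.38 in stomach. All esophagus arrays were above all stomach arrays but were widely scattered, with a log2 change of 1.12 (SE 0.42, adjusted p = 0.154), and the change was 1.51 without esophagus replicate 4 (adjusted p = 0.0437) but 0.58 without esophagus replicate 2 (adjusted p = 0.158). *Kcnk15* and *Kcnk16* were above background on 2 stomach arrays each, and *Kcnk2*, *Kcnk9*, *Kcnk12* and *Kcnk18* on none.

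*Kcnn4*, the intermediate-conductance calcium-activated channel known for its part in epithelial chloride secretion, was higher in stomach. It read 10.40, 10.98 and 10.94 in stomach and 8.80, 5.99 and 6.46 in esophagus. All arrays were above background, and the esophagus array of mouse 1 stood well above those of mice 2 and 4 without reaching the stomach arrays. The log2 change was -3.69 (SE 0.66, adjusted p = 0.00888), a 12.9-fold difference, measured at chr7:25169184-25169782 (mm9). Without esophagus replicate 1 it was -4.55 (adjusted p = 4.36e-05), and without esophagus replicate 2 it was -3.14 (adjusted p = 0.0267).

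Of the 14 inward rectifiers among the members, which leave out *Kcnj15*, only *Kcnj11*, the pore of the ATP-sensitive channel, passed. Its stomach values were 5.76, 6.01 and 5.42 and its esophagus values 5.15, 4.99 and 4.77, not well above background in esophagus. With means of 5.73 and 4.97 it was at least 1.63-fold higher in stomach (adjusted p = 0.0455). A second *Kcnj11* probe stayed at background on all arrays and did not pass (adjusted p = 0.796). Its call was lost without stomach replicate 1 (0.155), stomach replicate 2 (0.161), esophagus replicate 1 (0.0527), esophagus replicate 2 (0.113) or esophagus replicate 4 (0.114), and with a normexp offset of 50 (0.0724) or the mean of the gene's probes (0.144). *Abcc8*, which encodes the sulfonylurea receptor that assembles with this pore and is the neighbouring gene, was also higher in stomach. It read 12.33, 12.25 and 10.60 in stomach and 5.81, 6.03 and 5.63 in esophagus, a log2 change of -5.90 (SE 0.44, adjusted p = 8.49e-05). Its probes lie 6789 and 6802 bases from the *Kcnj11* probe on the same strand, and the part of shared transcripts was not tested. *Kcnj13*, the inward rectifier of retinal pigment epithelium and choroid plexus, was above background on all arrays and did not pass. It read 8.67, 7.93 and 7.99 in esophagus and 7.81, 7.45 and 7.90 in stomach, all esophagus arrays narrowly above the stomach arrays (log2 change 0.48, SE 0.24, adjusted p = 0.279). *Kcnj4*, *Kcnj6* and *Kcnj10* were above background on 2 arrays each and did not pass, *Kcnj6*, at background in esophagus, with adjusted p = 0.051. *Kcnj6* gained a call, higher in stomach, in 6 of the 8 other settings that keep all arrays.

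Among the accessory subunits, *Kcnab1* and *Kcnab3*, cytoplasmic beta subunits of Kcna channels, were above background on all 6 arrays. *Kcnab1* read 6.96, 6.44 and 6.79 in esophagus and 7.90, 6.26 and 7.15 in stomach, and its log2 change of -0.38 (SE 0.38, adjusted p = 0.638) was no larger than its error. *Kcnab3* differed by -0.11 (SE 0.20, adjusted p = 0.81). *Kcnmb4*, a beta subunit of the big-conductance channel, passed although its pore partner *Kcnma1* was above background on no array. It is also outside the rule for named genes, being above background on 2 esophagus arrays. Its values were 5.21, 6.26 and 6.09 in esophagus and 4.65, 4.52 and 4.92 in stomach, with means of 5.85 and 4.70, and it was at least 2.02-fold higher in esophagus (adjusted p = 0.0355). Its other probe, above background on 1 esophagus array, did not pass (adjusted p = 0.277). The call was lost without stomach replicate 1 (0.129), stomach replicate 2 (0.14), esophagus replicate 2 (0.108) or esophagus replicate 4 (0.0919), and with a normexp offset of 50 (0.0905) or the mean of the gene's probes (0.076). The filter on dim probes left *Kcnmb4* and *Kcnh2* untested.

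The 4 genes left out of the member list are the channel subunits best known from acid-secreting stomach and other secretory epithelia, and 3 of them were higher in stomach, against 7.7% of all gene names. *Kcnq1*, the pore of the channel that recycles potassium for acid secretion, had means of 13.61 in stomach and 5.83 in esophagus, a log2 change of -7.78 (SE 0.20, adjusted p = 3.69e-07). Its accessory subunit *Kcne3*, which holds it open in secretory epithelia, had means of 15.44 and 6.92, a change of -8.52 (SE 0.68, adjusted p = 0.000131), and of -9.44 without esophagus replicate 4 (adjusted p = 6.59e-07). *Kcnj15*, an inward rectifier of parietal cells, changed by -1.79 (adjusted p = 0.016), and its call was lost without stomach replicate 1 (0.078), stomach replicate 2 (0.0773) or esophagus replicate 2 (0.0502). *Kcne2*, the partner of *Kcnq1* in parietal cells, was above background on 1 stomach array and on no esophagus array, and did not pass (adjusted p = 0.162).

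Genes of ion pumps, cotransporters, channel partners and their regulators were set beside the members. Of 17 sodium pump and proton-potassium pump genes 2 (11.8%) were higher in esophagus and 4 (23.5%) in stomach, against 7.15% and 7.7% of all gene names. Of the sodium pump beta subunits, *Atp1b2* did not pass (log2 change 0.39, adjusted p = 0.421), and the other two moved in opposite directions, *Atp1b1* by -7.62 (SE 0.14, adjusted p = 8.9e-08) and *Atp1b3* by 2.65 (SE 0.16, adjusted p = 2.96e-05). The pump modifiers *Fxyd5* and *Fxyd3* were higher in stomach, with log2 changes of -2.43 and -2.0, and *Fxyd2*, of the same family, was higher in esophagus (0.91, adjusted p = 0.00641). Of 7 cation-chloride cotransporter genes, of which *Slc12a3* is known to carry sodium and no potassium, *Slc12a4* was higher in esophagus (2.17), *Slc12a7* (-3.28) and *Slc12a2* (-1.74) were higher in stomach, and 4 did not pass. These are 14.3% and 28.6% of this short list, against the same 7.15% and 7.7%.

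Of 9 partner genes 2 (22.2%) were higher in stomach, *Abcc8* and *Lrrc26*, against 7.7% of all gene names. *Lrrc26*, which encodes a gamma subunit of the big-conductance channel in secretory epithelia, changed by -3.75 (SE 0.18, adjusted p = 7.52e-06). Of 13 regulators of channels and cotransporters 5 (38.5%) passed, against 14.9% of all gene names, and 2 were higher in esophagus, *Sgk1* (3.58) and *Wnk4* (1.71), both kinases. The other 3 that passed, the kinase *Sgk2* (at least 6.18-fold), the ubiquitin ligase *Nedd4l* (-2.40) and the kinase *Wnk2* (-2.39), were higher in stomach.

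**Figure D5:**
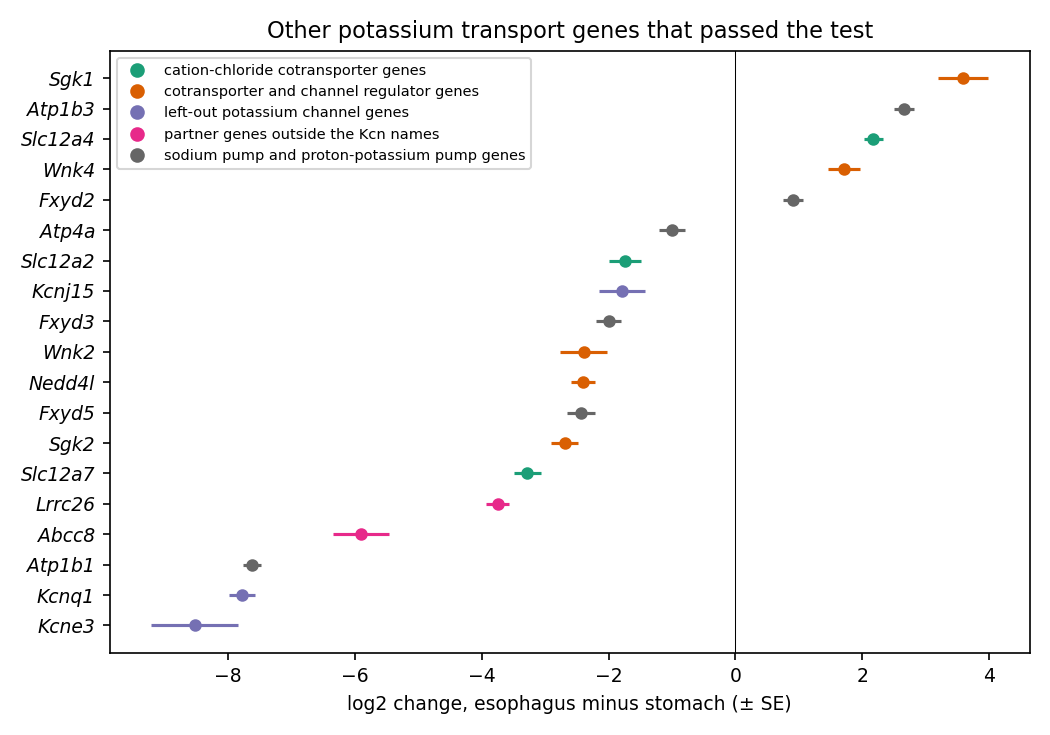
Log2 change, esophagus minus stomach, with its standard error (horizontal axis) for the genes of 5 other potassium transport lists that passed the test, coloured by list and plotted as differences of the deposited values also for *Sgk2* and *Atp4a*, at background in esophagus. *Kcne3*, *Kcnq1* and *Atp1b1* lie furthest toward stomach, between -8.52 and -7.62, and *Sgk1* furthest toward esophagus, at 3.58.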

How the data were processed

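RNA of 3 esophagus and 3 stomach organoid cultures was hybridised to single-color Agilent SurePrint G3 mouse arrays, and groups were taken from the labels. The authors read spots with Agilent Feature Extraction (version 11.5.1.1), and the deposited scanner files hold each spot's intensity, local background intensity and flags, not normalized between arrays. For their deposited log2 table the authors corrected the background and applied quantile normalization. Each of its columns ranked spots most like the scanner file of the same sample (Spearman 0.99 against at most 0.92 for any other array), cells were empty for exactly those spots the software marked as outliers, and normexp with an offset of 15 on median intensities followed by quantile normalization gave it back within a median of 0.00628 and at most 0.132 log2 units. The values of a probe's spots were averaged, and a probe counted as well above background on an array when at least 50% of its spots carried the flag.

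In R 4.3.3 with limma 3.58.1, lmFit and eBayes were run on the 6 arrays with tissue as the only term, as esophagus minus stomach for each probe, and Benjamini-Hochberg adjustment ran over 55681 probes. The script was tested on simulated data. With 3 arrays against 3, an exact permutation test of 1 gene cannot go below 0.1, and the number of arrays limits the precision. Where no array of a tissue was well above background, the fold is a lower bound: the bright tissue's mean was set against a floor for the dim tissue, averaged over its arrays, which was the lowest value among probes above background or, if higher, that of the gene.

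Members, their structural groups and the other gene lists were chosen with earlier results of these data known. Genes are named by a rule: called members detected on all 3 arrays of a tissue, the 10 members with the highest mean among those not called, members whose probes pass in opposite directions, the 4 left-out genes and up to 4 called genes of each other list by size of change. Some genes of these lists are not reported here. Other members are named for context after their values were seen, as are *Kcnh2* and *Kcnmb4* and, from the other lists, *Fxyd2*, *Atp4a*, *Wnk4*, *Atp1b2* and *Slc12a3*. The mouse numbers were taken to pair the arrays, since the labels number the mice alike for both tissues. Deviations from the tissue means correlated across probes by 0.025, 0.012 and -0.008 within mice and by -0.073 to 0.04 between mice. Esophagus replicate 4 was on a slide of its own and the other 5 arrays shared another, so the comparison within a slide is the one without that array. Alternatives were other normalizations of the intensities, a filter on dim probes, the mean of a gene's probes, another variance model, the mouse or slide as a block, each array left out, and other thresholds. Exon and UTR positions of probes were not analysed here, since no annotation of mm9 was used.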

Additional observations from a re-analysis of the deposited data

How the results depend on the processing

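With 8 members higher in each tissue in the main setting, leaving out 1 array at a time gave 4 to 9 higher in esophagus and 5 to 7 higher in stomach, and over all gene names 1349 to 2611 higher in esophagus against 2452 in the main setting and 1791 to 2983 higher in stomach against 2642. Normexp with an offset of 50 gave 5 members and 2162 gene names higher in esophagus, and adding a 2-fold threshold gave 5 members and 2093 gene names higher in stomach. The threshold of the study's methods, unadjusted p with 1.5-fold, gave 10 members and 3768 gene names higher in esophagus and 9 and 3675 higher in stomach. The other settings gave 6 to 8 members higher in esophagus and 7 to 10 higher in stomach. Over all gene names they gave 1686 to 2519 higher in esophagus and 2349 to 2723 higher in stomach. Scaling the processed signal to its 75th percentile moved the median log2 change of all probes from 0.02 to 0.19, and there *Kcnk4* lost its call and *Kcnj6* and *Kcnj10* gained one. *Kcnk4* also lost its call with the mean of a gene's probes and with the other variance model.

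With the mouse number as a replicate block 7 members were higher in esophagus and 7 in stomach, against 2222 and 2448 gene names. *Kcnh1* (adjusted p = 0.0677) and *Kcnh2* (0.0877) lost their calls, and the block changed no other member's call. With the slide as a random block 8 members were higher in esophagus and 9 in stomach, against 2472 and 2657 gene names. Within the slide that holds both tissues, without esophagus replicate 4, the counts were 9 and 6, against 2310 and 2435 gene names. With an offset of 50 *Kcnh1*, *Kcnj11*, *Kcnmb4* and *Kcnv1* lost their calls, and *Kcnj6* gained one. With the mean of a gene's probes *Kcnj11* and *Kcnmb4* lost theirs too, and *Kcnf1* and *Kcnj6* gained one. Changes under other settings are not given for genes at background in a whole tissue, since the floor of each setting fixes them. The filter on dim probes left *Kcnh2* and *Kcnmb4* untested. *Kcnj6* was also called at an offset of 16, with the other variance model and with the slide as a random block. The cause was not tested.

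Among the named members the direction turned only for genes that did not pass. With 1 array left out at a time, the log2 change ran from -0.016 to 0.080 for *Kcnd1* and from -0.80 to 0.021 for *Kcnab1* (both turned without stomach replicate 1), and from -0.26 to 0.0017 for *Kcnab3* (turned without stomach replicate 2). Signal over background limits what 50 of the 88 members can show, since they were well above it on no array.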
